A study of Homo sapiens with 5 samples.

Results

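Tubulins are the building blocks of microtubules, and their footprint counts were examined in 5 ribosome footprint libraries of HAP1 cells. The members were the alpha-tubulin genes TUBA1A, TUBA1B and TUBA1C and the beta-tubulin genes TUBB, TUBB1, TUBB2A, TUBB2B, TUBB3, TUBB4B and TUBB6. They were chosen by gene symbol, with earlier results of these data known. Of these 10 genes, 8 had a row among the 13638 rows of the count table, and TUBB and TUBB6 were not analysed here. All 8 passed the filter on low counts, together with 11205 genes in all, although TUBB1 passed through its counts in the knockout libraries alone. HAP1 is a near-haploid human cell line that descends from a chronic myeloid leukaemia. The ZCCHC4 knockout group held 3 libraries and the wild-type group held 2, with no treatment named for either. ZCCHC4 is the methyltransferase that the series' title names as writing N6-methyladenosine on 28S ribosomal RNA. The labels do not give the edited site, the number of clones or whether libraries came from separate cultures, so the p-values reflect only how these libraries vary, which may be technical variation.

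An alpha and a beta subunit pair into the heterodimer from which microtubules grow, and vertebrates make each subunit from several genes, called isotypes. The isotypes are nearly alike through the folded body of the protein and differ most in the acidic tail at the carboxyl terminus, where many modifying enzymes and motors act. Cells also adjust tubulin synthesis to the amount of free subunits: when free tubulin is plentiful, tubulin mRNAs are destroyed while they are being translated, in a process that recognises the start of the growing chain. A ribosome footprint is the short stretch of message covered by a translating ribosome and left after nuclease digestion. A footprint count therefore follows mRNA level and ribosome occupancy together, and these were not separated here. In cultured cells measured in bulk, fewer cells making a transcript and less of it per cell cannot be told apart.

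The coding sequences of the tubulins are shown first because the members share so much of them that a footprint cannot always be given to a single gene. Sequences were read from GENCODE release 29 transcripts (GRCh38), 5′ to 3′ on the coding strand. The first 30 coding bases, which encode the part of the chain that tubulin autoregulation reads, were identical in the 3 alpha-tubulin genes. Capitals mark bases that differ from TUBB4B among the beta-tubulins, and no base differs from TUBA1B among the alpha-tubulins.
TUBA1A, TUBA1B and TUBA1C: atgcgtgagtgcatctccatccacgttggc
TUBB4B: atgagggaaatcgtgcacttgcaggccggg
TUBB3: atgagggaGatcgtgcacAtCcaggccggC
TUBB2A: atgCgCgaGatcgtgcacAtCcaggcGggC
TUBB2B: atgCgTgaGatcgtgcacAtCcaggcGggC
TUBB1: atgCgTgaaatTgtCcaTAtTcagATTggC

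The last 45 coding bases encode the end of the carboxyl-terminal tail. Those of the 5 beta-tubulins are shown with the stop codon in capitals. TUBB2A differed from TUBB2B at 2 positions. TUBB3 differed from TUBB4B at 25 positions and TUBB1 differed from it at 23, in a comparison counted back from the stop codon without gaps.
TUBB4B: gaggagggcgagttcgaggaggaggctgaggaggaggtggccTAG
TUBB2A: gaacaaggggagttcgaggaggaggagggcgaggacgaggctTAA
TUBB2B: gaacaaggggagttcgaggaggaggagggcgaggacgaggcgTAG
TUBB3: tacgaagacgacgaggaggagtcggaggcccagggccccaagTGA
TUBB1: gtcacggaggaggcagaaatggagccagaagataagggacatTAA

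The genes lie on 5 chromosomes. On GRCh38, TUBA1B (chromosome 12, 49127782 to 49131397, minus strand), TUBA1A (chromosome 12, 49184796 to 49189324, minus strand) and TUBA1C (chromosome 12, 49188736 to 49274603, plus strand) form a cluster. TUBA1A and TUBA1C overlap on opposite strands in the annotation, and whether the counting used strand is not given in the sources used here. TUBB2A (chromosome 6, 3153669 to 3157526) and TUBB2B (chromosome 6, 3224261 to 3231730) are neighbours on the minus strand. TUBB4B lies on chromosome 9 (137241213 to 137243707), TUBB3 near the end of the long arm of chromosome 16 (89921392 to 89938761) and TUBB1 on chromosome 20 (59019254 to 59026654), all on the plus strand. Each of the 8 counted transcripts has 4 exons and between 1338 and 1356 coding bases, stop codon included.

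Coding sequence identity was 98.1% between TUBB2A and TUBB2B, with an identical run of 725 bases. Among the alpha-tubulins it was between 96.3% (TUBA1A with TUBA1C) and 97.3% (TUBA1B with TUBA1C). TUBB1 was the most distant beta-tubulin, at 75.0% with TUBB4B and 77.1% with TUBB2B. Cut into windows of 28 bases, the shortest footprints the protocol kept, 97.6% of the TUBB1 coding sequence occurred in no other gene or pseudogene. The same held for 72.0% of TUBB4B and 69.5% of TUBB3, leaving out a read-through gene model at the TUBB3 locus. It held for only 24.5% of TUBA1A, 24.5% of TUBA1C, 18.2% of TUBB2B, 15.3% of TUBB2A and 12.0% of TUBA1B. TUBA1B shared 52.7% of its windows with pseudogenes. How reads that map to several places were counted is not given in the sources used here. Single values of TUBA1A, TUBA1B, TUBA1C, TUBB2A and TUBB2B are therefore uncertain. Most windows of TUBB1, TUBB3 and TUBB4B were their own, but shares of windows are not shares of counts. Windows shared with a more abundant gene, as TUBB3 shares some with TUBB4B, could still weigh on the value of the scarcer gene.

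**Figure D1:**
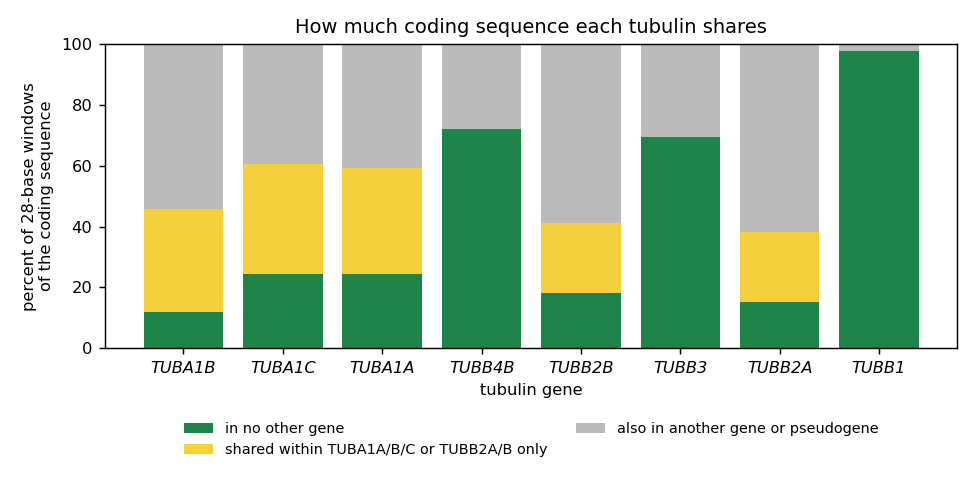
Percent of the 28-base windows of each tubulin's coding sequence (vertical axis) for the 8 genes (horizontal axis), with windows found in no other gene in green, windows shared only among TUBA1A, TUBA1B and TUBA1C or between TUBB2A and TUBB2B in yellow, and windows also found in another gene or pseudogene in grey. Green windows make up 97.6% of TUBB1, 72.0% of TUBB4B and 69.5% of TUBB3, and at most 24.5% of each of the other genes.

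Library totals were 29191146, 16940732 and 31557573 counts in the knockout and 5302160 and 4887380 counts in wild type, so depth and genotype cannot be told apart. Levels are given as CPM, a count scaled to the size of its library with TMM factors, and a single count was worth between 0.0339 and 0.0619 CPM in the knockout libraries and 0.172 and 0.187 CPM in wild type. The targeted gene ZCCHC4 was at 4.08 ± 0.810 CPM in the knockout (SD, n = 3) and 14.6 ± 1.97 CPM in wild type (SD, n = 2). Knockout replicate 2 stood apart from the other knockout libraries, with chi-square values, divided by their degrees of freedom, of 27.7 and 24.6 against them, where these gave 2.97 between themselves and the wild-type pair gave 1.14. Haematopoietic markers were few: of 8, only CD34, GATA2, KIT and TAL1 had rows, CD34 had no count in the knockout libraries, and GATA2 rose, KIT and TAL1 fell, and the summed level of the list was 36.2 to 40.3 CPM in the knockout and 35.5 to 36.7 CPM in wild type.

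All 8 tubulins rose in the knockout libraries. TUBB4B rose least, 1.58-fold, and the rises of the other genes apart from TUBB1 reached 4.72-fold for TUBB3, while TUBB1 was almost uncounted in wild type. In the test across all genes, 60.0% of genes passed in either direction and 30.2% were higher. Leaving out TUBB1, a rise of at least 2-fold was found for 6 of the other 7 tubulins, against 10.0% of all genes tested. Non-overlapping libraries with the knockout higher were found for those 7 and for 38.5% of all genes. The median log2 fold change was 1.38 over the 8 genes and 1.33 without TUBB1, beside 0.02 over all genes tested.

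TUBA1B, a widely expressed alpha-tubulin, was the most abundant of the 8 in the knockout libraries. Its level was 1011, 1151 and 1028 CPM in knockout replicates 1 to 3, against 511 and 501 CPM in wild type. The knockout values lay at about double those of wild type and did not overlap them. Its log2 fold change was 1.07 ± 0.08 (SE, edgeR adjusted p = 5.10e-06). TUBA1C, another widely expressed alpha-tubulin, had 450.4, 542 and 451 CPM in the knockout libraries and 175 and 184 CPM in wild type. Its log2 fold change was 1.42 ± 0.10 (edgeR adjusted p = 5.11e-06). TUBA1A, the alpha-tubulin best known from developing neurons, had 165, 198 and 163 CPM in the knockout libraries and 68.8 and 70.8 CPM in wild type. Its log2 fold change was 1.33 ± 0.11 (edgeR adjusted p = 1.23e-05). Knockout replicate 2 was the highest library for all 3 genes.

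TUBB4B, a widely expressed beta-tubulin that is also used in cilia, had 841, 949 and 879 CPM in the knockout libraries and 574 and 551 CPM in wild type. This was the smallest rise of the 8, with a log2 fold change of 0.66 ± 0.07 (edgeR adjusted p = 6.20e-05). TUBB2A had 82.4, 84.7 and 79.5 CPM in the knockout libraries, against 37.9 and 35.1 CPM in wild type, and a log2 fold change of 1.17 ± 0.10 (edgeR adjusted p = 1.13e-05). TUBB2B, its near-identical neighbour and a beta-tubulin of the developing brain, had 327, 353 and 339.9 CPM in the knockout libraries and 75.6 and 77.7 CPM in wild type. Its log2 fold change was 2.15 ± 0.08 (edgeR adjusted p = 1.76e-07). PSMG4, which overlaps TUBB2B on the opposite strand, was also higher, by 0.89 ± 0.16.

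TUBB3, which is used as a marker of neurons and is also made by many tumour lines, had 137, 168 and 141 CPM in the knockout libraries and 31.7 and 31.2 CPM in wild type. The log2 fold change was 2.24 ± 0.12 (edgeR adjusted p = 1.41e-06), and 215 of the 11205 genes tested had a larger one. The nearest tested genes on either side were also higher, TCF25 by 1.48 ± 0.10 and DEF8 by 0.37 ± 0.12 on the log2 scale (edgeR adjusted p = 4.60e-06 and 0.0224). Of 19 other tested genes within 1 Mb of TUBB3, 9 rose, 1 fell and 9 failed to pass, and their median log2 fold change was 0.37. For comparison, 30.2% of the 11205 genes were higher and 29.8% lower, around a median of 0.02. The part of this chromosome stretch in the TUBB3 result was not tested.

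TUBB1, the beta-tubulin of platelets and the megakaryocytes that shed them, had 247, 252 and 253 counts in the knockout libraries and 1 and 0 counts in wild type. These counts correspond to 9.05, 15.6 and 8.57 CPM in the knockout libraries, and the wild-type libraries lay below the 0.517 and 0.560 CPM that 3 counts are worth there. The ratio of summed counts, scaled for depth, was 115-fold (exact 95% binomial interval 20.6 to 4547, counting error only). The edgeR adjusted p was 1.19e-04, and the fitted log2 fold change of 6.81 ± 0.83 depends on how a near-zero wild type is treated. Without wild-type replicate 1 the remaining wild-type library had no count, and without wild-type replicate 2 the fitted log2 fold change was 5.93, with an edgeR adjusted p of 0.00480. Of 11 other tested genes within 1 Mb of TUBB1, 3 rose, 4 fell and 4 failed to pass, with log2 fold changes of -7.51 to 1.40. Over all genes, 30.2% were higher and 29.8% lower. The nearest tested neighbours of TUBB1 were among the 4 that failed to pass. CTSZ had a log2 fold change of 0.05 ± 0.11, PRELID3B 0.11 ± 0.09 and ATP5F1E, which overlaps TUBB1 on the opposite strand, 0.15 ± 0.07.

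**Figure D2:**
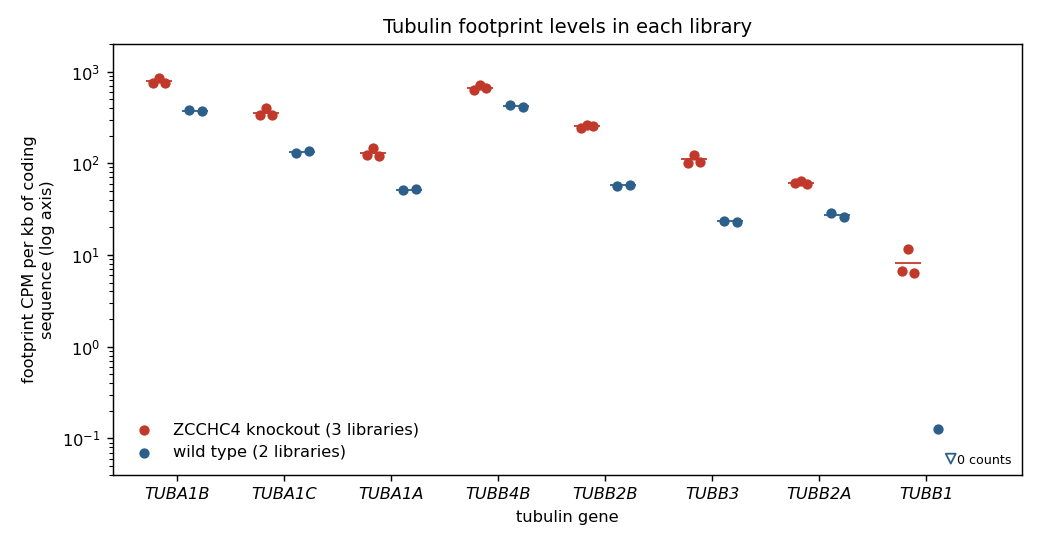
Footprint CPM per kb of coding sequence (vertical axis, log scale) for the 8 tubulins (horizontal axis), with 1 point per library, knockout in red left of wild type in blue, horizontal lines at group means, and an open triangle for the wild-type library with 0 TUBB1 counts, for which no mean is drawn. The red points lie above the blue points for each of the 8 genes, and the groups are closest for TUBB4B, at 665 against 421 CPM per kb on average.

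Markers of the cell types that TUBB1 and TUBB3 are known from were mostly low. Of 12 platelet and megakaryocyte markers, 2 had rows: ITGA2B, the platelet fibrinogen receptor chain, fell to 3.51 ± 0.428 CPM in the knockout against 13.3 ± 0.743 CPM in wild type (SD, n = 3 and n = 2), and GP1BB was not tested, with a mean of 0.0526 CPM in the knockout and no count in wild type. The summed level of that list was 3.19 to 4.03 CPM in the knockout and 12.8 to 13.8 CPM in wild type. All 12 neuronal markers had rows, and their summed level was 26.2 to 28.8 CPM in the knockout and 28.6 to 35.5 CPM in wild type. Of 5 tested rows, 3 reached the filter through the wild-type libraries alone, both rows of MAPT and the row of ELAVL3, so that each could pass the filter only as a gene lower in the knockout. One row of MAPT, which encodes the microtubule-binding protein tau, was at 0.458 ± 0.0483 CPM in the knockout and 2.68 ± 0.357 CPM in wild type. ELAVL3, a neuronal RNA-binding protein, had no count in the knockout libraries and 10 and 7 counts in wild type. DCX, a microtubule-binding protein of young neurons, had 1 count over all 5 libraries. MAP2, a microtubule-binding protein of dendrites, was at 13.9 ± 0.898 CPM in the knockout and 10.5 ± 1.95 CPM in wild type, with no overlap, and did not pass (0.40 ± 0.16, edgeR adjusted p = 0.0607). SYN1, a synaptic vesicle protein, was not tested, at 0.535 ± 0.274 CPM in the knockout and 0.273 ± 0.142 CPM in wild type. Without knockout replicate 2, and likewise without the filter on low counts, 1 neuronal marker, MAP2, was called higher. The part of neuronal markers in the TUBB3 result was not tested.

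The rises were unequal, so the make-up of the tubulin footprints differed between the genotypes. TUBB4B held 60.5 ± 0.214% of the counts of the 5 beta-tubulins in the knockout (SD, n = 3) and 79.5 ± 0.352% in wild type (SD, n = 2). TUBB2B held 23.1 ± 0.575% in the knockout and 10.8 ± 0.475% in wild type. TUBB3 held 10.1 ± 0.552% in the knockout and 4.45 ± 0.0524% in wild type. TUBB2A held 5.60 ± 0.271% in the knockout and 5.16 ± 0.159% in wild type. That TUBB2A difference, 0.435 percentage points, was 0.281 without knockout replicate 1. TUBB, commonly a main beta-tubulin of cultured cells, is not in these sums, so the shares are of the 5 genes counted and not of all beta-tubulin.

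The alpha-tubulins kept their order, with smaller shifts. TUBA1B held 61.9 ± 0.911% of the alpha counts in the knockout and 67.0 ± 1.00% in wild type. TUBA1C held 27.9 ± 0.642% in the knockout and 23.8 ± 0.826% in wild type. TUBA1A held 10.2 ± 0.274% in the knockout and 9.25 ± 0.175% in wild type. These alpha-tubulin shares depend on how footprints of shared sequence were assigned, which is not given.

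**Figure D3:**
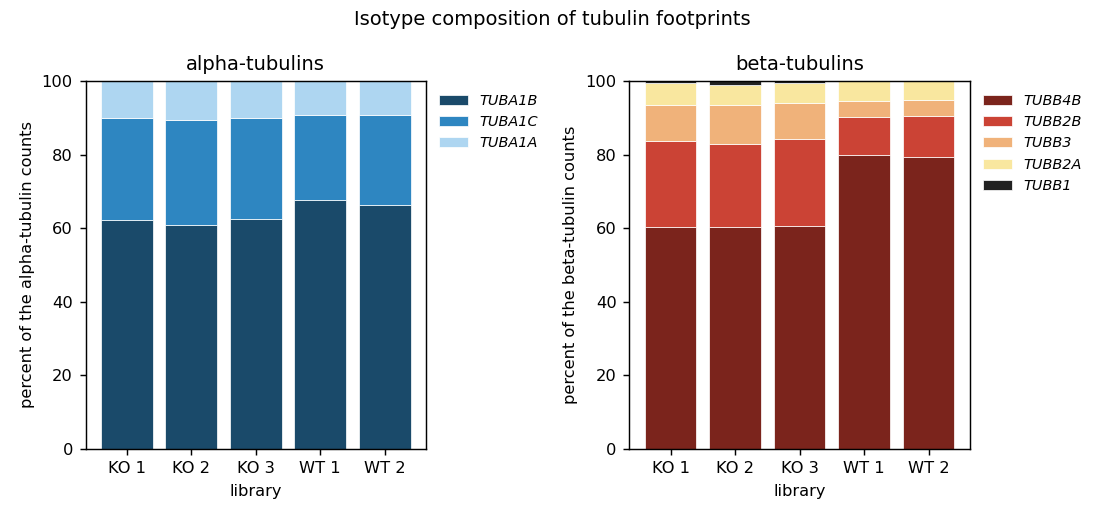
Percent of the counts of the 3 alpha-tubulins (left panel) and of the 5 beta-tubulins (right panel) that each gene held (vertical axis, stacked bars) in each library (horizontal axis, knockout left of wild type). TUBB4B falls short of 61% of the beta bar in each knockout library and exceeds 79% in each wild-type library, while the alpha bars differ less.

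Ratios between members within a library were compared to set unequal rises against the spread between libraries without any scaling. Per coding length, TUBB3 stood at 0.165 ± 0.00910 of TUBB4B in the knockout and at 0.0553 ± 8.96e-04 of it in wild type, a ratio 2.99 times higher in the knockout. These are the members with the most sequence of their own after TUBB1, and they shared 9.4% of TUBB3's windows. How much of the TUBB3 count came from those windows was not measured, and TUBB4B was the more abundant gene. TUBB2B stood at 0.382 ± 0.00945 of TUBB4B in the knockout and at 0.136 ± 0.00658 in wild type. TUBB2B stood at 4.13 ± 0.155 times TUBB2A in the knockout and at 2.10 ± 0.157 times in wild type. TUBA1C stood at 0.454 ± 0.0172 of TUBA1B in the knockout and at 0.357 ± 0.0177 in wild type. The knockout and wild-type libraries did not overlap in any of the 7 ratios computed, which are only some of the possible pairs of members. Among single genes, 38.5% of all tested had non-overlapping libraries with the knockout higher and 37.9% with it lower. The share for ratios of other gene pairs was not computed, so the count of ratios cannot be set against one. The two-sided exact permutation p was 0.1 for each of the 7 ratios, and 0.1 after Benjamini-Hochberg adjustment over them. This is the smallest p that 3 against 2 libraries allow.

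Summed over genes, where the splitting of reads among the genes summed has no effect, both classes were higher. Reads shared with genes or pseudogenes outside a sum, or dropped for mapping to several places, could still move it. The 3 alpha-tubulins together had 1627, 1891 and 1643 CPM in the knockout libraries and 754 and 755 CPM in wild type, 2.28 times as much. The 5 beta-tubulins together had 1396, 1571 and 1448 CPM in the knockout libraries and 720 and 695 CPM in wild type, 2.08 times as much. TUBB2A and TUBB2B together had 409, 437 and 419 CPM in the knockout libraries and 114 and 113 CPM in wild type, 3.73 times as much. The alpha sum was 1.17 ± 0.0349 times the beta sum in the knockout and 1.07 ± 0.0267 times in wild type. No test was made on these sums.

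Levels of different genes were ordered per kb of coding sequence. In the knockout libraries the order was TUBA1B (784 ± 56.1 CPM per kb), TUBB4B (665 ± 41.0), TUBA1C (356 ± 39.1), TUBB2B (254 ± 9.59), TUBA1A (130 ± 14.5), TUBB3 (110 ± 12.7), TUBB2A (61.4 ± 1.92) and TUBB1 (8.17 ± 2.90). TUBA1A and TUBB3 were the only neighbours in that order whose knockout libraries overlapped. In wild type TUBB4B came first (421 ± 12.1 CPM per kb), ahead of TUBA1B (373 ± 5.33), and TUBB2A (27.3 ± 1.51) came ahead of TUBB3 (23.3 ± 0.293). The other places were the same in both genotypes, and no neighbours overlapped in the 2 wild-type libraries.

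Knockout replicate 2 had the highest CPM of the 5 libraries for each of the 8 tubulins. Without it, the 8 genes still passed with the knockout higher, at log2 fold changes of 0.61 for TUBB4B to 2.14 for TUBB3 and 6.50 for TUBB1. Scaling by library totals moved the median of all genes' log2 fold changes from 0.02 to -0.20 and split the passing genes into 2391 higher and 4564 lower, where TMM scaling gave 3380 higher and 3341 lower. With library totals the 8 tubulins remained higher, from 0.44 for TUBB4B to 2.02 for TUBB3 on the log2 scale, with 6.60 for TUBB1.

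Other tubulin genes moved mostly the same way. Of 12 listed, 10 had rows and 8 were tested. Beside 30.2% higher and 29.8% lower over all genes, 5 of the 8 rose, 1 fell and 2 failed to pass. Of these, TUBB8 reached the filter through the knockout libraries alone, and without it 4 of 7 rose, with a median log2 fold change of 1.25 in place of 1.28. TUBA4A, an alpha-tubulin whose gene does not encode the final tyrosine, rose to 179 ± 24.4 CPM in the knockout against 43.8 ± 0.465 CPM in wild type, by 2.03 ± 0.13 on the log2 scale (edgeR adjusted p = 3.03e-06). Of its windows, 76.7% occurred in no other gene. The beta-tubulin TUBB4A rose by 1.31 ± 0.13. The gamma-tubulin TUBG1, which nucleates microtubules, rose by 0.88 ± 0.12, and 45.2% of its windows occurred in other protein-coding genes. TUBB8, with 219 knockout and 3 wild-type counts, was higher by a ratio of 11.2-fold (exact 95% binomial interval 3.77 to 54.5), and 79.7% of its windows occurred in pseudogenes. Delta- and epsilon-tubulin take part in building the triplet microtubules of centrioles, and they went opposite ways. TUBD1 rose by 1.25 ± 0.18, whereas TUBE1 fell to 12.9 ± 0.718 CPM in the knockout against 42.2 ± 1.32 CPM in wild type, with a log2 fold change of -1.71 ± 0.11 (edgeR adjusted p = 3.17e-06).

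**Figure D4:**
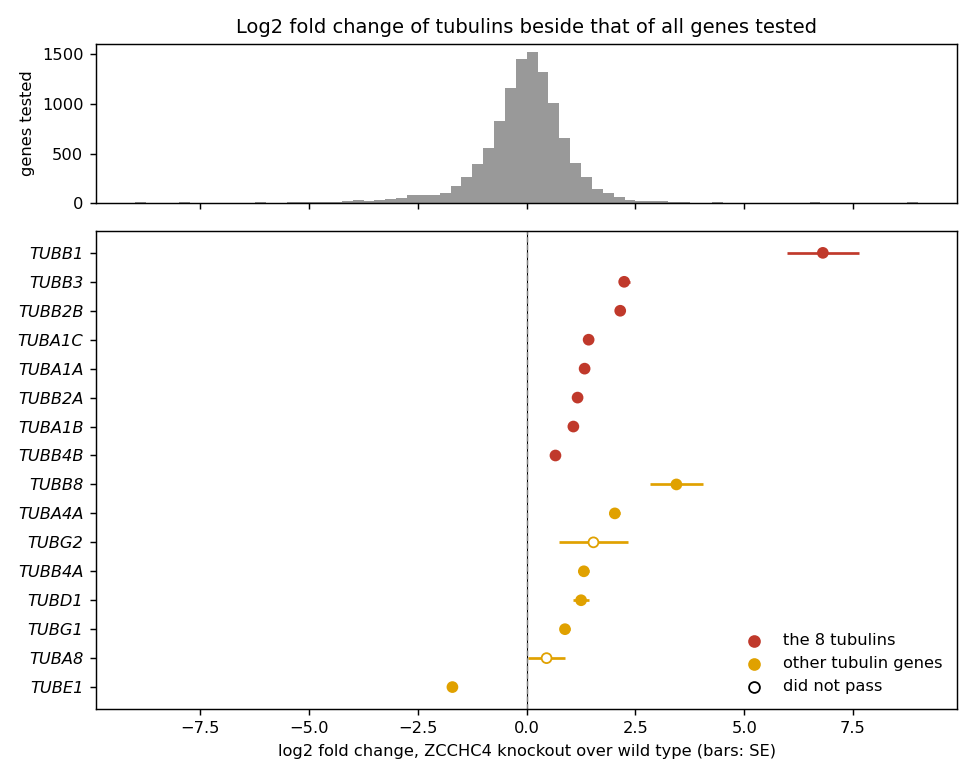
Histogram of the log2 fold changes of all 11205 genes tested (top, values beyond 9 drawn at 9) above those of the 8 tubulins in red and of other tubulin genes in yellow (bottom), with SE bars, open circles for genes that did not pass and a dashed line at the median of all genes. The 8 tubulins lie between 0.66 (TUBB4B) and 6.81 (TUBB1), and TUBE1, at -1.71, is the only tubulin gene shown that fell.

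Among genes that fold tubulin, most CCT subunits rose. The CCT chaperonin, a ring of 8 kinds of subunit that folds tubulin and actin, rose in 7 of 8 subunits, and the median log2 fold change of the 8 was 0.61. CCT6A rose to 1482 ± 29.8 CPM in the knockout against 690 ± 13.0 CPM in wild type (1.10 ± 0.06) and TCP1 rose by 0.91 ± 0.06. With library totals 7 subunits rose and 1 fell, where 2391 of all 11205 genes were higher and 4564 lower. Of 5 tested subunits of prefoldin, which hands unfolded tubulin to CCT, PFDN5 rose by 0.76 ± 0.08 and 4 did not pass, with PFDN4 at -0.30 ± 0.18. With library totals 1 prefoldin subunit rose and 2 fell, and without knockout replicate 2 there were 2 calls in place of 1. Of 10 tested genes of the cofactors that assemble the heterodimer and of their partners, 3 rose, 2 fell and 5 failed to pass (median 0.09), shares close to or below the 30.2% higher and 29.8% lower over all genes. RP2, which resembles cofactor C, rose by 1.35 ± 0.09, and TBCE, cofactor E, fell by 0.77 on the log2 scale. TTC5, the factor that recognises nascent tubulin chains in autoregulation, was at 27.1 ± 0.877 CPM in the knockout and 24.2 ± 4.35 CPM in wild type and did not pass (0.16 ± 0.13, edgeR adjusted p = 0.303).

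Enzymes that modify tubulin fell more often than they rose. Of 16 tested rows, 7 fell, 2 rose and 7 failed to pass, where 29.8% of all genes were lower. The median log2 fold change of these rows was -0.35. AGBL3, a deglutamylase with no wild-type count, is 1 of the 2 that rose and reached the filter through the knockout libraries alone. Without it, 1 of 15 rose and the median was -0.42. AGTPBP1, a deglutamylase that shortens glutamate chains on tubulin tails, fell to 30.4 ± 0.493 CPM in the knockout against 77.2 ± 0.375 CPM in wild type (-1.35 ± 0.09). TTLL1, part of a complex that adds glutamates, fell to 2.20 ± 0.129 CPM in the knockout against 9.26 ± 0.898 CPM in wild type (-2.07 ± 0.19). TTL, the ligase that restores the final tyrosine of alpha-tubulin, fell by 0.84 on the log2 scale.

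Genes that nucleate and organise microtubules were called at 70% in the gamma-tubulin ring complex and its partners and at 51.9% among microtubule-associated proteins, beside 60.0% over all genes. Of 10 genes of the gamma-tubulin ring complex and its partners, 3 rose, 4 fell and 3 failed to pass (median 0.05). With library totals none of them rose and 5 fell. Over all 11205 genes, library totals gave 2391 higher and 4564 lower. TUBGCP2 fell to 81.5 ± 7.53 CPM in the knockout against 132 ± 0.979 CPM in wild type (-0.70 ± 0.10), and TUBGCP3 was at -0.59 ± 0.09. Calls in this complex were 3 without wild-type replicate 1 and 4 without wild-type replicate 2, against 7. Of 27 tested microtubule-associated proteins, 10 rose, 4 fell and 13 failed to pass (median -0.02), and with library totals 8 rose and 12 fell. Without wild-type replicate 1, 8 of them were called, against 14. MAP1A, which stabilises microtubules, rose by 1.18 ± 0.13, and FIGN, a severing enzyme, rose by 1.72 ± 0.19.

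**Figure D5:**
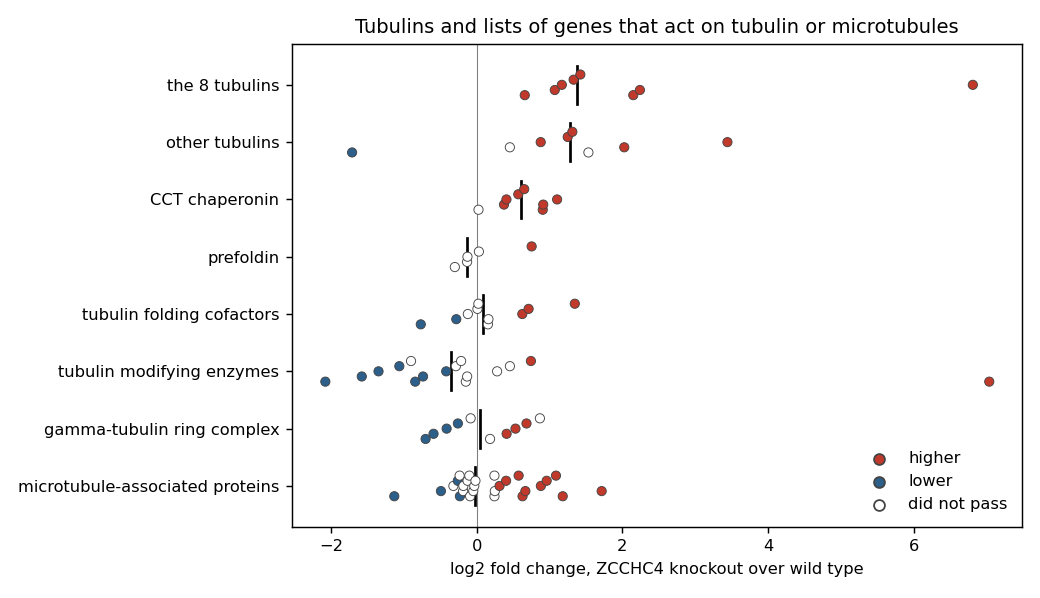
Log2 fold changes, knockout over wild type (horizontal axis), of the 8 tubulins and of 7 related lists (rows), with 1 point per tested row of the table, red for higher, blue for lower, white for rows that did not pass and black bars at medians. The medians are 1.38 for the 8 tubulins, 1.28 for other tubulins, 0.61 for the CCT chaperonin and between -0.35 and 0.09 for the other lists, and the modifying enzyme at the far right, AGBL3, had no wild-type count.

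The genes whose levels followed those of the most abundant tubulins most closely were sought among the 4857 genes whose average log2 CPM reached 5 or more. The measure was the Euclidean distance between log2 CPM profiles over the 5 libraries, each centred on its mean, which in 2 groups of libraries mostly reflects the size of the difference between them. For TUBA1B the nearest were RPS29 (distance 0.0275), PKM (0.0302) and FTL (0.0307). For TUBB4B they were TPI1 (0.0462), COMMD9 (0.0504) and HIST1H2AD (0.0532), the last a gene with near-identical copies.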

How the data were processed

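The authors' deposited table gives raw footprint counts, as whole numbers, for each transcript with its gene symbol. Its column names stand 1 cell left of their values, and columns were assigned by name after that shift. Per the labels' protocols, footprints of 28 to 32 nt came from RNase I digested monosomes, with cycloheximide in the lysis buffer. The submitters' processing notes name Bowtie, with no version, and hg38. The sources used here do not give the counting tool, its strand setting or its handling of multi-mapping reads, all of which could move the values of near-identical tubulins.

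The test was edgeR 4.0.16 in R 4.3.3, with TMM scaling and a filterByExpr minimum count of 10. It used a quasi-likelihood fit with genotype only and a Benjamini-Hochberg adjusted p under 0.05 over 11205 genes. It was also run on simulated data in which far fewer genes changed than the 60.0% called here. That run does not show how the test performs on these data. "Rose", "fell" and "passed" refer to the edgeR test. The SE is the log2 fold change divided by the square root of F. Totals of 4887380 to 31557573 counts set the precision, and intervals and floors of 3 counts cover counting error only. Alternatives were RLE, upper-quartile and library-total scaling, no filter, a mean count of at least 50, DESeq2 1.42.0, a replicate block and leaving out each library.

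The members and lists were chosen with earlier results of these data known. Named were the members, ZCCHC4, from each list the 2 genes of lowest adjusted p, the 3 genes nearest in profile to TUBA1B and TUBB4B, and the neighbours of TUBB1 and TUBB3. TUBB4A, TUBB8, TUBD1, TUBG1, TTC5, TTL, AGBL3, PSMG4, MAP2, SYN1, GP1BB, DCX, CD34 and TAL1 were named after their values were seen. Coding sequences and positions came from GENCODE release 29 (GRCh38), and windows were matched exactly, on the sense strand, to all its transcripts. The tail sequences of the alpha-tubulins are not reported here.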

Additional observations from a re-analysis of the deposited data

How the results depend on the processing

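All 8 tubulins passed with the knockout higher in each alternative that kept both wild-type libraries. Over all genes, those fits called from 2391 of 11205 (library totals) to 4164 of 11161 (without knockout replicate 2) higher. TUBB1 reached the main filter through the knockout libraries alone, so its call there could hardly go the other way. With either wild-type library left out the 8 were also higher, so the direction was the same in all 12 alternatives. The log2 fold changes over those alternatives ranged from 0.44 to 0.70 for TUBB4B, 0.85 to 1.11 for TUBA1B, 0.95 to 1.23 for TUBB2A, 1.11 to 1.38 for TUBA1A, 1.21 to 1.46 for TUBA1C, 1.93 to 2.19 for TUBB2B and 2.02 to 2.29 for TUBB3. For TUBB1 they ranged from 5.93 to 10.7, the highest without wild-type replicate 1, where no wild-type count is left. Genes called in all ranged from 4698 to 8176, against 6721. With library totals, the log2 ratio of the summed alpha-tubulins was 0.97 in place of 1.19 and that of the beta-tubulins 0.84 in place of 1.06. Leaving out a library or counting per coding length changed no direction of an isotype share, and the difference in the TUBB2A share, 0.435 percentage points, was 0.281 without knockout replicate 1.

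With a replicate block, 8 tubulins and 6094 genes were called. The labels do not say that replicate numbers pair libraries, and same-numbered libraries deviated with correlations of -0.106 and -0.103. Prefoldin calls were 3 with library totals and 2 with the replicate block, against 1, and ranged from 1 to 2 when a library was left out, with 2 without knockout replicate 2. Calls in the gamma-tubulin ring complex ranged from 3 (without wild-type replicate 1) to 7 when a library was left out, against 7, with 4 without wild-type replicate 2. Calls among microtubule-associated proteins ranged from 8 (without wild-type replicate 1) to 19, against 14. A group left with 1 library was assumed to vary like the other. The cause of these changes was not tested. Wild-type depth limits TUBB1 and TUBB8, with at most 3 counts in all.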
